A study of Mus musculus with 12 samples.

Results

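The genes described here are 10 regulators of cytokine mRNA decay in LPS-treated mouse macrophages, chosen by symbol (Zfp36, Zfp36l1, Zfp36l2, Zc3h12a, Zc3h12c, Rc3h1, Rc3h2, Elavl1, Arid5a and Khsrp) from a table of 55401 genes. Each of the 10 symbols matched 1 row of the table, and all 10 passed the filter on low values. The study compared 4 constructs in bone marrow-derived macrophages (BMDM) of C57BL/6J mice that lack Irx3 (Irx3-/-), which encodes an Iroquois homeobox protein. The constructs, delivered by adeno-associated virus (AAV), were IRX3_S361A and IRX3_S389A, each with 1 serine replaced by alanine, the unchanged IRX3_WT, and GFP as the control. Every group therefore shared the Irx3 deletion, the virus and the stimulus, 100 ng/ml of lipopolysaccharide (LPS, a bacterial product that activates Toll-like receptor 4) for 4 h, after 7 days of differentiation with 20 nM M-CSF. No unstimulated library and no macrophage with its own Irx3 stood among the 12 libraries, 3 per construct.

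Activated macrophages make cytokine mRNAs in bursts and remove them quickly, through proteins that bind AU-rich elements or stem-loops in the 3′ untranslated region (3′ UTR). TTP (encoded by Zfp36) and its relatives (Zfp36l1, Zfp36l2) bind AU-rich elements and bring the CCR4-NOT deadenylase. KSRP (Khsrp), a KH-domain protein, also binds such elements and recruits decay enzymes. Regnase-1 (Zc3h12a) and Regnase-3 (Zc3h12c) belong to a family of endonucleases that cut stem-loops, and Roquin-1 and Roquin-2 (Rc3h1, Rc3h2) bind stem-loops and recruit deadenylation. HuR (Elavl1) and ARID5A (Arid5a) act the other way and stabilize target mRNAs, ARID5A by opposing Regnase-1 on Il6. Zfp36 and Zc3h12a are themselves LPS-induced genes.

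Values are normalized counts, that is gene counts divided by 1 size factor per library, as deposited. Differences are log2 differences of value + 1 from limma, called at a Benjamini-Hochberg adjusted p under 0.05 over 13369 tested genes. Irx3 itself stood at 348.5 ± 21.5 normalized counts in IRX3_S361A, 187.4 ± 20.2 in IRX3_S389A and 177.1 ± 16.3 in IRX3_WT (SD, n = 3 each), and at 0 in all 3 GFP libraries, where 3 reads correspond to 2.67 to 2.78 normalized counts. IRX3_S361A libraries held more Irx3 transcript than IRX3_S389A and IRX3_WT libraries, without overlap, so in IRX3_S361A vs IRX3_WT and in IRX3_S389A vs IRX3_S361A an effect of the serine change and one of the amount of Irx3 cannot be told apart. The labels do not say whether the constructs carry mouse or human IRX3, so how fully counts on the mouse gene measure the construct transcript is not known. Deposited totals ran from 18743369 to 19796325 in the 9 libraries with an IRX3 construct and from 17325311 to 17469765 in the 3 GFP libraries. When every library was scaled to the same total, the median over all genes moved to -0.18 (IRX3_WT vs GFP), -0.17 (IRX3_S389A vs GFP) and -0.11 (IRX3_S361A vs GFP), so smaller rises against GFP depend on the scaling. Macrophage markers were abundant in all 12 libraries (Adgre1, Csf1r, Cd68 and Lyz2 among them), whereas the 8 lymphocyte markers summed to at most 10.24 normalized counts. The labels do not say whether the 3 libraries of a group came from separate animals or cultures, so the p-values measure only the spread between these libraries, which may be technical.

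The 3′ UTRs of the regulators were searched for UAUUUAU, the core of the AU-rich element that TTP binds, to show which of these mRNAs carry the element their own proteins read. It occurred in the longest annotated 3′ UTR (GENCODE M21, GRCm38) of 7 of the 10, against 30.3% of 11399 tested genes with an annotated 3′ UTR, whose median length was 1356 bases. The count was 3 in Zfp36 (3′ UTR of 774 bases), Zfp36l1 (1835 bases), Zfp36l2 (1822 bases) and Rc3h2 (5331 bases), 2 in Zc3h12c (4062 bases) and Rc3h1 (7181 bases), and 8 in Elavl1 (4218 bases). Zc3h12a (856 bases), Arid5a (3826 bases) and Khsrp (1642 bases) held none. A 30-base stretch with the most copies follows for 4 of them, with UAUUUAU in capitals: the 3 TTP family members, which bind this element, and Elavl1, which had the most copies.
Zfp36, chr7:28376958-28376987, minus strand: ccuuUAUUUAUgacgacuuUAUUUAUugua
Zfp36l1, chr12:80108422-80108451, minus strand: cuuaucaaaacgUAUUUAUugccaaacuau
Zfp36l2, chr17:84184914-84184943, minus strand: aacuauuuaacuUAUUUAUuaucuugugaa
Elavl1, chr8:4285777-4285806, minus strand: uUAUUUAUUUAUUUAUUUAUuuuUAUUUAU
In Zfp36 both copies in the stretch stand apart, in Zfp36l1 and Zfp36l2 the stretch holds 1 copy, and in Elavl1 copies overlap into a run. A match is a description of the letters and not a site shown to be bound, and genes with longer 3′ UTRs have more room for one.

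Promoter windows of 300 bases (250 before to 50 after the start, RefSeq, GRCm38.p6) were found for 9 of the 10 genes and not for Zfp36l2. They were searched on both strands for 8 motifs of factors active in LPS-treated macrophages or of Iroquois proteins. The Zfp36 window held 3 of them, which did not overlap: TTCNNNGAA, the element of STAT factors, starting 17 bases before the start and present in 8.30% of 32851 promoters; the CArG box of serum response factor, 58 bases before the start (1.63% of promoters); and GCGNGGGCG, the element of EGR1, 105 bases before the start (5.55% of promoters). They are printed because Zfp36 was the one regulator called between the mutant constructs by limma at the threshold given above. The motif is in capitals in a 30-base stretch. In GENCODE M21 these stretches also lie within an annotated exon of a longer Zfp36 transcript.
TTCNNNGAA, chr7:28379227-28379256, minus strand: cacagcctgacTTCTGCGAAccgacagtcg
CArG box, chr7:28379267-28379296, minus strand: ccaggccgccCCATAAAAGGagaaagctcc
GCGNGGGCG, chr7:28379315-28379344, minus strand: cgagctacgccGCGGGGGCGcgtcccggaa
Zfp36l1 and Rc3h1 held the AP-1 element TGANTCA (7.81% of promoters). The 9 genes had 10 windows, as Zc3h12c had more than 1. It held the kappaB consensus (8.46%) in the window at chr9:52168357-52168656 and not in its other window, at chr9:52149314-52149613. GAAANNGAA (interferon-stimulated response element, 8.56%), TGACGTCA (cAMP response element, 1.79%) and ACANNTGT (bound by Iroquois proteins in Drosophila, 7.38%) were not in any of these windows, which says only that these letters are absent there.

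In IRX3_WT vs GFP all 10 genes passed the threshold, of which Rc3h1, Rc3h2 and Elavl1 did not with equal library totals. In IRX3_WT libraries 7 of the 10 rose (Zfp36, Zc3h12a, Zc3h12c, Arid5a, Rc3h1, Rc3h2 and Elavl1) and 3 fell (Zfp36l1, Zfp36l2 and Khsrp), and for none of the 10 did the groups overlap. Over all 13369 tested genes, 21.0% were called higher and 18.6% lower in this comparison, and 48.4% had groups that did not overlap. The median log2 difference was 0.24 over the 10 genes and -0.01 over all genes. With equal library totals, 1395 genes were called higher and 5519 lower, in place of 2805 and 2483, and 4 of the 10 regulators were then called higher and 3 lower. Over all 4 groups together 10 of 10 were called (8 at the fewest among the alternatives), against a background of 44.2%. The 10 genes were chosen with earlier results of these data known, so these shares are no independent evidence. They also stood at 308.4 normalized counts or above in every library, whereas the background includes genes near the filter of 10. Because RNA was taken from bulk cultures, fewer cells with a transcript and less of it per cell cannot be told apart.

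**Figure D1:**
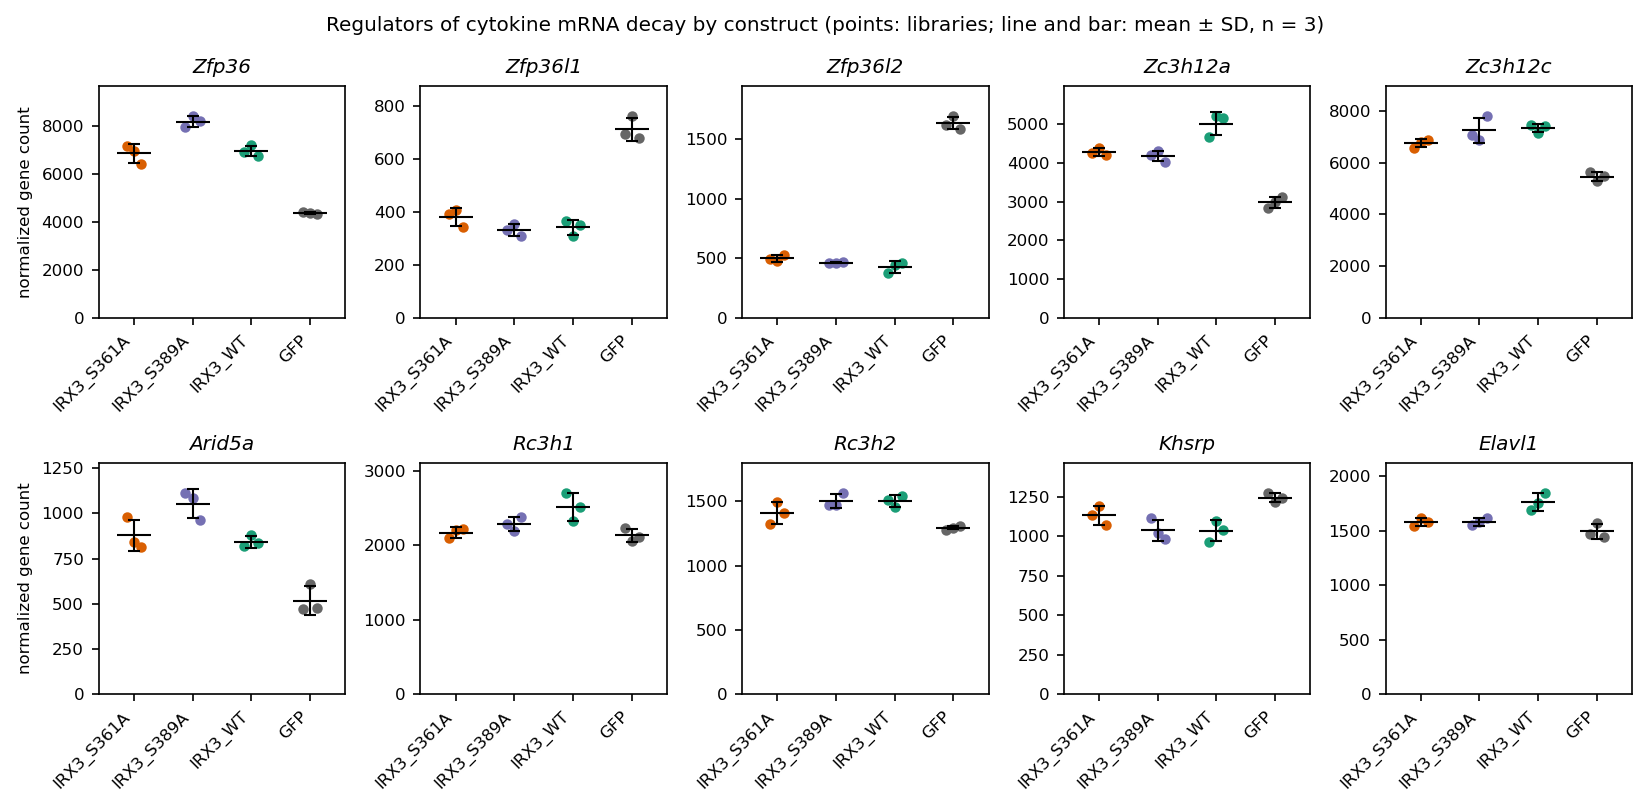
Normalized count (vertical axis, from 0) of each of the 10 regulators in the 12 libraries, by construct; points are libraries, and the line and bar are the mean ± SD (n = 3). Zfp36l2 stands at 373.1 to 531.7 in the 9 libraries with an IRX3 construct, against 1588 to 1692 in GFP libraries.

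The TTP family split by member. Zfp36 (ENSMUSG00000044786.6, chr7:28376784-28380253, minus strand) had 7190, 6967 and 6421 normalized counts in IRX3_S361A, 7964, 8411 and 8194 in IRX3_S389A, 6936, 7200 and 6745 in IRX3_WT, and 4400, 4357 and 4327 in GFP. All 9 libraries with an IRX3 construct stood above all 3 GFP libraries, and the IRX3_S389A libraries stood above all others without overlap. The log2 difference from GFP was 0.65 in IRX3_S361A, 0.91 in IRX3_S389A and 0.67 in IRX3_WT (SE 0.04 each; limma adjusted p = 5.59e-16, 1.47e-20 and 4.61e-17), or 1.57-fold, 1.88-fold and 1.60-fold.

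Zfp36 also differed between constructs. It was 1.18-fold higher in IRX3_S389A than in IRX3_WT (log2 difference 0.23, SE 0.04, limma adjusted p = 3.21e-05) and 1.19-fold higher in IRX3_S389A than in IRX3_S361A (0.26, SE 0.04, limma adjusted p = 1.11e-05). Between IRX3_S361A and IRX3_WT the difference was -0.02 (95% interval -0.10 to 0.06, limma adjusted p = 0.777), and the groups overlapped. Zfp36 was the one regulator called between the mutants, where 7.00% of all genes were called higher and 3.16% lower in IRX3_S389A, and where the Irx3 level also differed, as given above. In edgeR on the 9 libraries whose whole reads could be recovered with certainty, which leaves 1 IRX3_S361A library, that difference was 0.16 with an adjusted p of 0.118, against 9.63e-08 at the lowest among the 20 alternatives.

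Zfp36l2 (ENSMUSG00000045817.8, chr17:84183931-84187947, minus strand), which encodes a TTP relative that binds the same element, had the largest difference of the 10. It stood at 490.9, 476.1 and 531.7 normalized counts in IRX3_S361A, 458.7, 461.0 and 466.5 in IRX3_S389A, 373.1, 445.5 and 460.8 in IRX3_WT, and 1621, 1692 and 1588 in GFP. Every library with an IRX3 construct lay below every GFP library. The IRX3_WT mean was 0.261 of the GFP mean (log2 difference -1.94, SE 0.07, limma adjusted p = 7.04e-23), and the differences of IRX3_S361A and IRX3_S389A from GFP were -1.71 and -1.82 (limma adjusted p = 1.48e-20 and 1.25e-21). Among all 13369 genes it ranked 11 by p over the 4 groups.

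Zfp36l2 was slightly higher in IRX3_S361A than in IRX3_WT (1.17-fold, log2 difference 0.23, SE 0.07, limma adjusted p = 0.0216). That call rested on few libraries: the limma adjusted p was 0.248 without IRX3_WT replicate 1 and 0.134 without IRX3_S361A replicate 3, and 0.0712 with only the 2 groups, and it ranged from 0.00335 to 0.248 over the 20 alternatives. For IRX3_S389A the difference from IRX3_WT was 0.12 (95% interval -0.02 to 0.27, limma adjusted p = 0.288).

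Zfp36l1 (ENSMUSG00000021127.7, chr12:80107754-80113013, minus strand), the third family member, had 390.7, 407.5 and 343.8 normalized counts in IRX3_S361A, 332.6, 354.3 and 308.9 in IRX3_S389A, 364.3, 308.4 and 351.6 in IRX3_WT, and 694.2, 761.5 and 681.2 in GFP. The GFP libraries stood above the other 9 without overlap, and the constructs overlapped among themselves. The log2 difference from GFP was -0.90 in IRX3_S361A, -1.10 in IRX3_S389A and -1.06 in IRX3_WT (SE 0.09 each; limma adjusted p = 6.59e-11, 1.82e-13 and 3.77e-13). Relative to IRX3_WT the difference was 0.16 in IRX3_S361A (95% interval -0.02 to 0.33, limma adjusted p = 0.239) and -0.04 in IRX3_S389A (-0.21 to 0.13, limma adjusted p = 0.825). Of its exon bases 55.9% are overlapped by the antisense gene Gm26669, so that without the strand setting of the counting, which is not given in the sources used here, reads of the 2 genes cannot be told apart.

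Both endonuclease genes were higher with every IRX3 construct than with GFP, and Zc3h12a was lower with either mutant than with IRX3_WT. Zc3h12a (Regnase-1, ENSMUSG00000042677.7, chr4:125118423-125127840, minus strand) had 4254, 4379 and 4197 normalized counts in IRX3_S361A, 4192, 4303 and 4033 in IRX3_S389A, 4669, 5201 and 5155 in IRX3_WT, and 2822, 3000 and 3118 in GFP. All IRX3_WT libraries lay above both mutants, which overlapped each other, and all GFP libraries lay below them. IRX3_WT was 1.68-fold above GFP (log2 difference 0.75, SE 0.04, limma adjusted p = 5.15e-17), and the mutants were 0.52 (IRX3_S361A) and 0.49 (IRX3_S389A) above GFP on the log2 scale (limma adjusted p = 4.17e-12 and 9.57e-12).

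Set against IRX3_WT, Zc3h12a fell by 0.23 in IRX3_S361A (log2 difference, SE 0.04, limma adjusted p = 0.000229) and by 0.26 in IRX3_S389A (SE 0.04, limma adjusted p = 3.39e-05). It was the one regulator of the 10 that was called against IRX3_WT in both mutants under all 20 alternatives. The mutants differed from each other by -0.03 (IRX3_S389A vs IRX3_S361A, 95% interval -0.12 to 0.05, limma adjusted p = 0.715).

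Zc3h12c (Regnase-3, ENSMUSG00000035164.8, chr9:52111344-52168572, minus strand) had 6585, 6815 and 6883 normalized counts in IRX3_S361A, 7078, 6877 and 7797 in IRX3_S389A, 7464, 7151 and 7417 in IRX3_WT, and 5639, 5287 and 5476 in GFP. All 9 libraries with an IRX3 construct exceeded the GFP libraries. The log2 difference from GFP was 0.31 in IRX3_S361A, 0.41 in IRX3_S389A and 0.43 in IRX3_WT (SE 0.04 each; limma adjusted p = 1.19e-07, 1.13e-10 and 2.78e-11). In IRX3_S361A it fell by 0.12 relative to IRX3_WT (limma adjusted p = 0.0376), a call that ended when any 1 of 5 libraries was left out (adjusted p of 0.149, 0.0662 and 0.0564 without IRX3_S361A replicates 1, 2 and 3, and 0.126 and 0.0989 without IRX3_WT replicates 1 and 3) and with equal library totals (0.367; range over the 20 alternatives 0.0165 to 0.367).

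Arid5a (ENSMUSG00000037447.16, chr1:36307733-36324029, plus strand), whose product stabilizes Il6 mRNA, had 977.8, 843.8 and 813.2 normalized counts in IRX3_S361A, 1114, 1085 and 961.4 in IRX3_S389A, 817.1, 879.5 and 834.1 in IRX3_WT, and 470.5, 608.7 and 474.6 in GFP. All libraries with an IRX3 construct lay above GFP, and IRX3_S389A lay above IRX3_WT without overlap. The log2 difference from GFP was 0.77 in IRX3_S361A, 1.03 in IRX3_S389A and 0.71 in IRX3_WT (SE 0.09 each; limma adjusted p = 4.62e-07, 2.48e-09 and 6.89e-07), so the IRX3_S389A mean was 2.03-fold the GFP mean.

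Within the constructs, Arid5a rose 1.25-fold in IRX3_S389A over IRX3_WT (log2 difference 0.32, SE 0.09, limma adjusted p = 0.0155). That adjusted p became 0.0729 and 0.0692 without IRX3_S389A replicates 1 and 2, and 0.0788 and 0.0698 without IRX3_WT replicates 1 and 3, in a range of 0.000784 to 0.0788 over the 20 alternatives. Between IRX3_S389A and IRX3_S361A the difference was 0.26 (95% interval 0.08 to 0.45, limma adjusted p = 0.0611), with adjusted p from 0.00914 to 0.803 over the 20 alternatives. It passed the threshold without IRX3_S361A replicate 1 (0.00918), IRX3_S389A replicate 3 (0.0254), GFP replicate 1 (0.046) or GFP replicate 2 (0.00914), and in DESeq2 (0.0322), with no low-value filter (0.0385), with only the 2 groups (0.0161) and with the replicate block (0.0212).

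**Figure D2:**
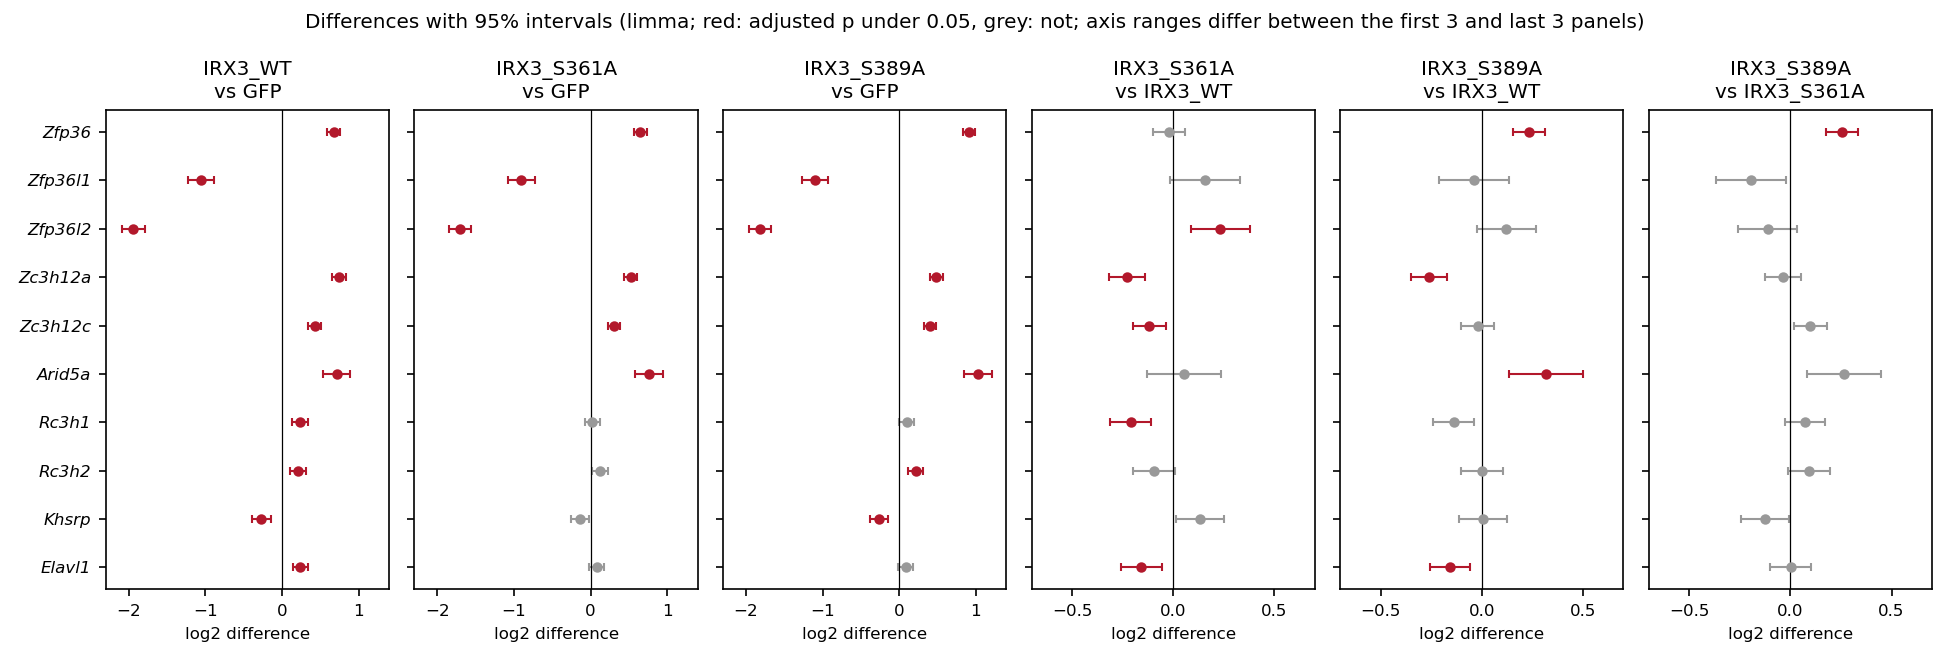
Log2 difference (horizontal axis) of each regulator in the 6 comparisons, first-named group minus second, with 95% intervals from limma; red marks an adjusted p under 0.05. All 10 points are red in IRX3_WT vs GFP, 5 in IRX3_S361A vs IRX3_WT, 4 in IRX3_S389A vs IRX3_WT and 1, Zfp36, in IRX3_S389A vs IRX3_S361A.

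The Roquin genes and Elavl1 were higher in IRX3_WT than in GFP by small amounts that depended on the scaling. Rc3h1 (ENSMUSG00000040423.11, chr1:160906418-160974978, plus strand) had 2094, 2209 and 2214 normalized counts in IRX3_S361A, 2284, 2188 and 2383 in IRX3_S389A, 2707, 2332 and 2514 in IRX3_WT, and 2231, 2065 and 2112 in GFP. IRX3_WT lay above GFP and IRX3_S361A without overlap, whereas both mutants overlapped GFP. IRX3_WT exceeded GFP by a log2 difference of 0.24 (SE 0.05, limma adjusted p = 0.000191), or by 0.06 with equal library totals (limma adjusted p = 0.339, with the lowest of the 20 alternatives at 2.63e-05). In IRX3_S361A, Rc3h1 fell by 0.21 relative to IRX3_WT (SE 0.05, limma adjusted p = 0.00227), called under all 20 alternatives. In IRX3_S389A the difference was -0.14 (95% interval -0.24 to -0.04, limma adjusted p = 0.0542), and the groups overlapped. That adjusted p was below the threshold in edgeR with TMM (0.0469) and without IRX3_S361A replicate 1 (0.0446), IRX3_S389A replicate 3 (0.0302) or IRX3_WT replicate 2 (0.00949), and ranged from 0.00949 to 0.34 over the 20 alternatives.

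Rc3h2 (ENSMUSG00000075376.10, chr2:37370069-37422903, minus strand) had 1327, 1493 and 1408 normalized counts in IRX3_S361A, 1470, 1473 and 1566 in IRX3_S389A, 1512, 1453 and 1541 in IRX3_WT, and 1280, 1296 and 1308 in GFP. The 3 GFP libraries were the lowest of the 12. IRX3_S389A and IRX3_WT each exceeded GFP by a log2 difference of 0.21 (SE 0.05, limma adjusted p = 0.000927 and 0.000841), but by 0.05 and 0.04 with equal library totals (limma adjusted p = 0.48 and 0.57). IRX3_S361A was 0.12 above GFP (95% interval 0.02 to 0.22, limma adjusted p = 0.0801), with an adjusted p of 0.0263 without IRX3_S361A replicate 1. Over the 20 alternatives the adjusted p ranged from 0.000527 to 0.48 for IRX3_S389A, from 0.000481 to 0.57 for IRX3_WT and from 0.0263 to 0.927 for IRX3_S361A. No difference between IRX3 constructs passed the threshold for Rc3h2.

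Elavl1 (ENSMUSG00000040028.10, chr8:4285382-4325413, minus strand), which encodes the stabilizing protein HuR, had 1544, 1620 and 1575 normalized counts in IRX3_S361A, 1547, 1579 and 1618 in IRX3_S389A, 1685, 1757 and 1847 in IRX3_WT, and 1473, 1567 and 1439 in GFP. IRX3_WT lay above all other libraries, and the mutants overlapped each other and GFP. The IRX3_WT level exceeded GFP by a log2 difference of 0.24 (SE 0.05, limma adjusted p = 0.000136), or by 0.06 with equal library totals (limma adjusted p = 0.297, against 3.91e-05 at the lowest of the 20 alternatives). Relative to IRX3_WT it fell by 0.16 both in IRX3_S361A and in IRX3_S389A (SE 0.05, limma adjusted p = 0.0235 and 0.0263). The IRX3_S361A call was lost without IRX3_S361A replicate 1 (adjusted p = 0.0919) or 3 (0.067) or IRX3_WT replicate 3 (0.133) and with equal totals (0.193), and the IRX3_S389A call without IRX3_S389A replicate 1 (0.11) or 2 (0.0732) or IRX3_WT replicate 3 (0.153). Both were also lost with no low-value filter (0.0602 in IRX3_S361A and 0.0663 in IRX3_S389A) and in edgeR on 9 libraries (0.0968 in IRX3_S361A and 0.0688 in IRX3_S389A). Over the 20 alternatives the adjusted p ranged from 0.0165 to 0.193 for IRX3_S361A and from 0.0172 to 0.153 for IRX3_S389A.

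Khsrp (ENSMUSG00000007670.10, chr17:57021051-57031522, minus strand), which encodes the decay-promoting KSRP, had 1133, 1191 and 1070 normalized counts in IRX3_S361A, 1112, 1020 and 981.7 in IRX3_S389A, 962.8, 1097 and 1041 in IRX3_WT, and 1274, 1216 and 1239 in GFP. All 9 libraries with an IRX3 construct lay below the GFP libraries. The log2 difference from GFP was -0.26 in IRX3_S389A and -0.27 in IRX3_WT (SE 0.06, limma adjusted p = 0.000436 and 0.000295). In IRX3_S361A it was -0.14 (95% interval -0.26 to -0.02, limma adjusted p = 0.0826), and -0.25 with equal library totals (adjusted p = 0.00113; 0.00113 to 0.323 over the 20 alternatives). Relative to IRX3_WT, Khsrp differed by 0.13 in IRX3_S361A (95% interval 0.01 to 0.25, limma adjusted p = 0.138; 0.0175 to 0.494 over the 20 alternatives) and by 0.01 in IRX3_S389A (95% interval -0.11 to 0.12, limma adjusted p = 0.965).

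The comparisons of the mutants with GFP share the GFP libraries with that of IRX3_WT. In IRX3_S361A vs GFP 4 rose and 2 fell, where 14.9% of all genes were higher and 10.9% lower. In IRX3_S389A vs GFP 5 rose and 3 fell, where 18.8% were higher and 16.2% lower. Equal library totals gave 1047 higher and 3226 lower genes in IRX3_S361A vs GFP, in place of 1996 and 1461, and 1334 higher and 5397 lower in IRX3_S389A vs GFP, in place of 2516 and 2160. The 6 genes Zfp36, Zfp36l1, Zfp36l2, Zc3h12a, Zc3h12c and Arid5a were called in the same direction in all 3 comparisons with GFP, also with equal totals.

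Relative to IRX3_WT, IRX3_S361A had 1 regulator higher (Zfp36l2) and 4 lower (Zc3h12a, Zc3h12c, Rc3h1 and Elavl1), where 6.43% of all genes were higher and 9.07% lower. IRX3_S389A had 2 higher (Zfp36 and Arid5a) and 2 lower (Zc3h12a and Elavl1), where 8.21% were higher and 7.08% lower. Groups did not overlap for 5 of the 10 genes in IRX3_S361A (29.3% of all genes) and 4 in IRX3_S389A (29.1%). The medians over the 10 were -0.06 in IRX3_S361A and -0.01 in IRX3_S389A on the log2 scale, against 0.01 and 0.00 over all genes. With equal totals IRX3_S361A had 1805 genes higher and 754 lower than IRX3_WT, in place of 859 and 1212, and 2 of the regulators were then higher (Zfp36l2 and Khsrp) and 2 lower (Zc3h12a and Rc3h1). Between the mutants, equal totals also brought Zfp36l1 (-0.25, limma adjusted p = 0.0458; 0.0458 to 0.432 over the 20 alternatives) and Khsrp (-0.18, 0.0389; 0.0389 to 0.564) past the threshold, and gave 597 genes higher and 1053 lower in IRX3_S389A, in place of 936 and 423.

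Ratios between regulators of the same library do not depend on the scaling, and they were taken per kb of all annotated exons of a gene. That length is the same in every library, so it enters the size of a ratio but not its change between groups. Zfp36 stood at 14.9, 14.9 and 12.3 times Zfp36l2 in IRX3_S361A, 17.7, 18.6 and 17.9 times in IRX3_S389A, 18.9, 16.4 and 14.9 times in IRX3_WT, and 2.76, 2.62 and 2.77 times in GFP. The 3 IRX3 constructs all lay above GFP, and the geometric mean of the ratio was 6.13-fold higher in IRX3_WT than in GFP. Zfp36 over Zfp36l1, with the limit on Zfp36l1 given above, averaged 15.6 ± 0.727 in IRX3_S361A, 21.3 ± 1.34 in IRX3_S389A, 17.7 ± 2.11 in IRX3_WT and 5.29 ± 0.31 in GFP (SD, n = 3 each).

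Arid5a over Zc3h12a was 0.0528, 0.0443 and 0.0445 in IRX3_S361A, 0.0611, 0.058 and 0.0548 in IRX3_S389A, 0.0402, 0.0389 and 0.0372 in IRX3_WT, and 0.0383, 0.0466 and 0.035 in GFP. Both mutants lay above IRX3_WT without overlap, by 1.22-fold (IRX3_S361A) and 1.49-fold (IRX3_S389A), whereas IRX3_WT and GFP overlapped. Zc3h12a over Zc3h12c averaged 1.5 ± 0.0475 in IRX3_S361A, 1.37 ± 0.132 in IRX3_S389A, 1.62 ± 0.124 in IRX3_WT and 1.3 ± 0.0932 in GFP (SD, n = 3 each). For 3 libraries against 3 an exact two-sided permutation test cannot go below 0.1, which is the p of 16 of the 24 tests of these 4 ratios, or 0.15 after adjustment over the 24, so none passes 0.05.

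**Figure D3:**
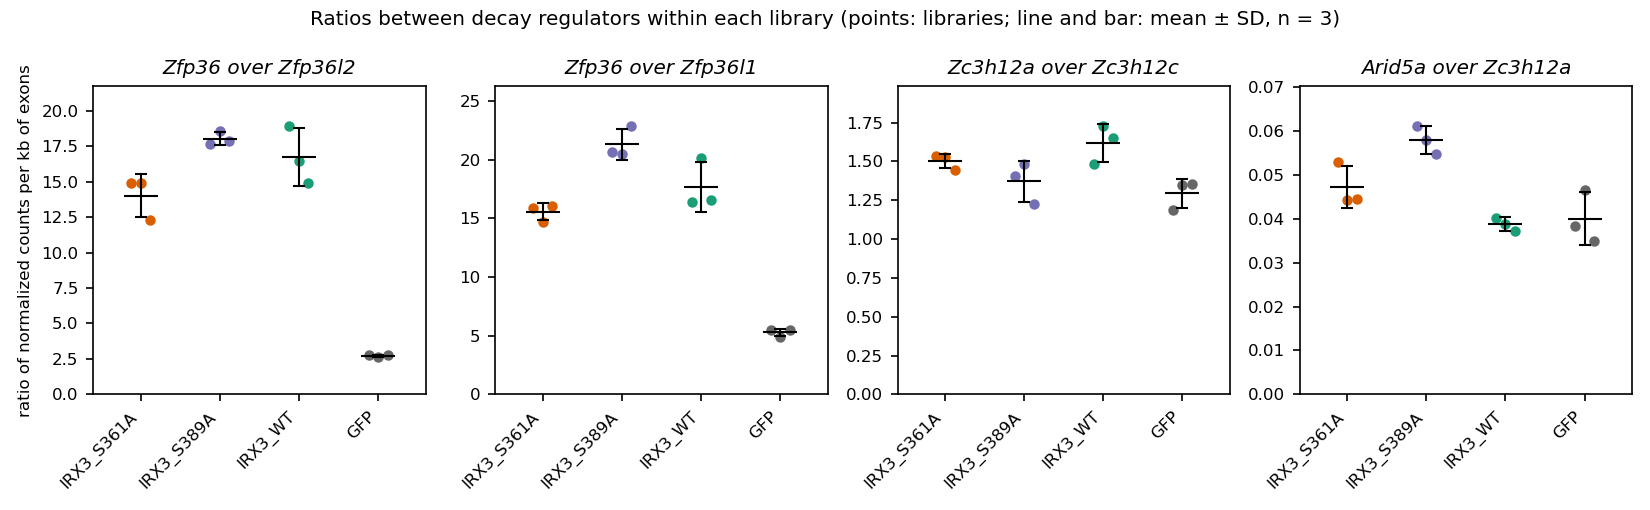
Ratio of 2 regulators within each library, per kb of exons (vertical axis, from 0), by construct; points are libraries, and the line and bar are the mean ± SD (n = 3). Zfp36 over Zfp36l2 stands between 12.3 and 18.9 in the 9 libraries with an IRX3 construct and between 2.62 and 2.77 in GFP libraries.

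By level per kb of exons, Zfp36, Zc3h12a and Zc3h12c were the 3 highest in this order in every group. The length used covers every annotated exon of a gene (3470 bases for Zfp36, 12540 for Arid5a and 19624 for Rc3h2) and not the transcript expressed. The order between genes therefore depends in part on the annotation. In IRX3_WT they stood at 2006 ± 65.8, 1738 ± 102 and 1073 ± 24.6 normalized counts per kb, and in GFP at 1257 ± 10.6, 1034 ± 51.7 and 798.7 ± 25.8 (SD, n = 3 each). Zfp36l2 took rank 7 in IRX3_S361A, IRX3_S389A and IRX3_WT (141.5 ± 8.17, 130.9 ± 1.13 and 120.8 ± 13.3 per kb) and rank 4 in GFP (462.8 ± 15 per kb). In IRX3_WT the order went on with Khsrp (239.3 ± 15.6), Rc3h1 (222.7 ± 16.6), Elavl1 (170.1 ± 7.80), Zfp36l2, Zfp36l1 (114.2 ± 9.80), Rc3h2 (76.53 ± 2.29) and Arid5a (67.27 ± 2.57 per kb). The neighbours Khsrp and Rc3h1, and Zfp36l2 and Zfp36l1, overlapped there. In GFP no neighbours overlapped. Arid5a and Rc3h2 overlapped in both mutants, as did Elavl1 with Zfp36l2 and Zfp36l2 with Zfp36l1 in IRX3_S361A.

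**Figure D4:**
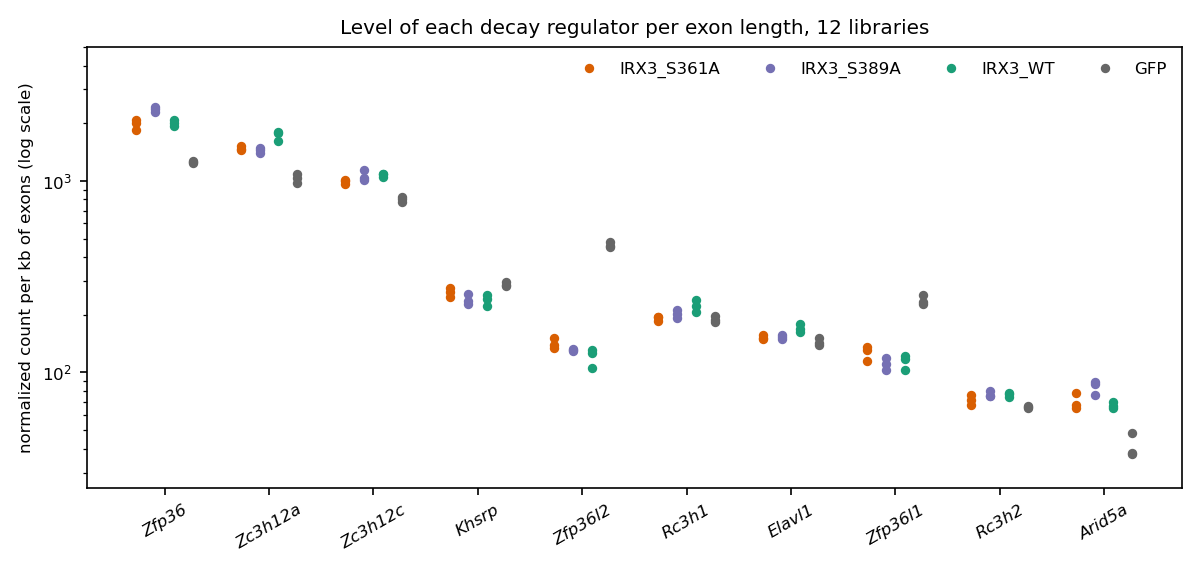
Normalized count per kb of exons (vertical axis, log scale) of the 10 regulators in 12 libraries, ordered by the mean over all libraries; each point is a library, coloured by construct. Zfp36, Zc3h12a and Zc3h12c lie at 772.3 or above in all 12 libraries, and Zfp36l2 has rank 7 with each IRX3 construct and rank 4 in GFP.

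The genes with the pattern most like a regulator were those with the smallest root mean square difference of centred log2 values over 12 libraries, among 8762 genes with a symbol and a mean of at least 100 normalized counts, so that their order of groups follows from the choice. For Zfp36l2 they included Plekhg3 (0.16), Arl4c (0.17) and Rassf3 (0.17), and Plekhg3, for example, averaged 94.66 in IRX3_S361A, 79.45 in IRX3_S389A, 83.85 in IRX3_WT and 307.6 in GFP. The nearest to Zfp36 were Irf1 (0.06), Abtb2 (0.06), Igtp (0.07) and Mx1 (0.07), and Irf1, an interferon regulatory factor, averaged 4933 in IRX3_S361A, 6143 in IRX3_S389A, 5122 in IRX3_WT and 3411 in GFP. For Zc3h12a they were Nfkbia (0.04), Cdc42ep2 (0.05), Ptpn1 (0.06) and Marcksl1 (0.07), and Nfkbia, the inhibitor of NF-kappaB, averaged 16826 in IRX3_S361A, 16874 in IRX3_S389A, 19401 in IRX3_WT and 12025 in GFP.

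As a background to the gene groups of the decay machinery, the shares of all 13369 genes called were 21.0% higher and 18.6% lower in IRX3_WT vs GFP (1395 and 5519 genes with equal totals), 6.43% and 9.07% in IRX3_S361A vs IRX3_WT (1805 and 754 genes with equal totals), and 8.21% and 7.08% in IRX3_S389A vs IRX3_WT (1171 and 874 genes with equal totals).

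Of 20 tested kinases, phosphatases, proteases and partners that act on the regulators, 12 rose and 2 fell in IRX3_WT vs GFP (median log2 difference 0.19), or 5 and 6 with equal totals. Malt1, the protease that cleaves Regnase-1 in lymphocytes, averaged 15897 ± 438 in IRX3_S361A, 18916 ± 377 in IRX3_S389A, 22708 ± 717 in IRX3_WT and 10678 ± 217 in GFP (SD, n = 3 each). It rose in IRX3_WT over GFP by a log2 difference of 1.09 (SE 0.03, limma adjusted p = 1.36e-25) and fell by 0.51 in IRX3_S361A and by 0.26 in IRX3_S389A relative to IRX3_WT (limma adjusted p = 8.44e-15 and 1.64e-07). Mapkapk2, the kinase that phosphorylates TTP, was 0.63 above GFP in IRX3_WT (26377 ± 913 against 17029 ± 395 normalized counts, limma adjusted p = 6.64e-10). Dusp1, a phosphatase of p38 upstream of that kinase and also in the list of bound mRNAs, was 0.58 above GFP in IRX3_WT and 0.28 lower in IRX3_S361A than in IRX3_WT (limma adjusted p = 4.14e-13 and 2.77e-05). Prkcd, a kinase of HuR, exceeded GFP by 0.40 in IRX3_WT (limma adjusted p = 6.43e-13). Each of these 4 genes was called against GFP with equal totals too. Relative to IRX3_WT, 1 of the 20 rose and 3 fell in IRX3_S361A (2 and 2 with equal totals), where 6.43% and 9.07% of all genes did, and 0 rose and 2 fell in IRX3_S389A (8.21% and 7.08% of all genes).

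Among 22 other proteins that bind 3′ UTRs, 10 rose and 2 fell in IRX3_WT vs GFP (median 0.09), but 3 rose and 7 fell with equal totals, so the balance turned with the scaling. N4bp1, an RNase related to the Regnases, averaged 5036 ± 185 in IRX3_WT and 3771 ± 53.4 in GFP (log2 difference 0.42, SE 0.04, limma adjusted p = 1.92e-11). Zc3h12d, the Regnase-4 gene, averaged 413.1 ± 12.8 in IRX3_S361A, 316 ± 37.1 in IRX3_WT and 446.6 ± 23.0 in GFP, falling by 0.50 in IRX3_WT relative to GFP (log2 difference -0.50) and rising by 0.39 in IRX3_S361A relative to IRX3_WT (limma adjusted p = 9.78e-06 and 0.00116). The m6A reader Ythdf1 was 0.36 above GFP in IRX3_WT and 0.22 higher in IRX3_S389A than in IRX3_S361A (limma adjusted p = 2.09e-08 and 0.00074). In all, 1 of the 22 rose and 1 fell in IRX3_S361A vs IRX3_WT (2 and 0 with equal totals), where 6.43% and 9.07% of all genes did, and 1 rose and 3 fell in IRX3_S389A vs IRX3_WT (2 and 2 with equal totals), where 8.21% and 7.08% did.

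Of 18 deadenylase genes and adaptors, 4 rose and 2 fell in IRX3_WT vs GFP (median 0.07; 2 and 8 with equal totals), near or below the 21.0% and 18.6% of all genes. Btg1 and Btg2, which link the CCR4-NOT nucleases to mRNA, rose by 0.46 and 0.52 over GFP (log2 differences, SE 0.04 and 0.05, limma adjusted p = 2.28e-11 and 4.60e-12), and Cnot7, a CCR4-NOT nuclease, by 0.30 (limma adjusted p = 7.18e-05), or 0.12 with equal totals (adjusted p = 0.0771). Btg1 averaged 3946 ± 134 in IRX3_S361A, 4182 ± 123 in IRX3_S389A, 4913 ± 89.9 in IRX3_WT and 3587 ± 227 in GFP. In IRX3_S361A 3 of the 18 were called relative to IRX3_WT, all lower (Btg1, Cnot7 and Btg2), where 9.07% of all genes were lower. With equal totals 1 was higher and 2 were lower, and Btg2 was no longer called (log2 difference -0.11, limma adjusted p = 0.0957). In IRX3_S389A 2 were lower, Btg1 and Cnot7, where 7.08% of all genes were, and Cnot7 was not called without IRX3_S389A replicate 1 (limma adjusted p = 0.106) or IRX3_WT replicate 1 (0.0711).

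In the decapping and 5′-to-3′ decay group, 7 of 21 rose and 2 fell in IRX3_WT vs GFP (median 0.09; 3 and 6 with equal totals), against 21.0% and 18.6% of all genes. The decapping enzyme gene Dcp2 and the exonuclease gene Xrn1 rose by 0.43 and 0.46 (SE 0.04 each, limma adjusted p = 9.99e-12 and 7.43e-11). Both were higher in IRX3_S389A than in IRX3_S361A: Xrn1 averaged 2912 ± 34.3 in IRX3_S389A and 2326 ± 58.5 in IRX3_S361A (log2 difference 0.32, limma adjusted p = 2.1e-06) and Dcp2 5797 ± 72.0 in IRX3_S389A and 4977 ± 169 in IRX3_S361A (0.22, limma adjusted p = 0.000102). Lsm14b was lower in IRX3_S389A than in IRX3_S361A (log2 difference -0.36, limma adjusted p = 0.00828). In all, 2 of the 21 were higher and 1 lower there (2 and 2 with equal totals), where 7.00% and 3.16% of all genes were. Relative to IRX3_WT, 2 of the 21 rose and 3 fell in IRX3_S361A (3 and 1 with equal totals), where 6.43% and 9.07% of all genes did. In IRX3_S389A 1 rose and 0 fell (2 and 0 with equal totals), where 8.21% and 7.08% did. Pnrc1 rose by 0.63 in IRX3_WT vs GFP (limma adjusted p = 6.24e-09).

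In the exosome and UPF1 group 2 of 20 tested genes rose and 9 fell in IRX3_WT vs GFP (median -0.16), or 0 and 15 with equal totals. Exosc2, a subunit of the exosome, averaged 185.8 ± 22.7 in IRX3_WT and 270.6 ± 34.5 in GFP (log2 difference -0.54, SE 0.11, limma adjusted p = 0.000131), and Smg5, a partner of UPF1 in nonsense-mediated decay, differed by -0.24 (SE 0.05, limma adjusted p = 0.000156). Smg1, the kinase of UPF1, was 0.21 above GFP (limma adjusted p = 5.07e-05), but 0.04 with equal totals (adjusted p = 0.481).

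Of 29 tested mRNAs known to be bound by the regulators, mainly cytokine and feedback transcripts, 26 rose and 1 fell in IRX3_WT vs GFP (median 0.80; 24 and 2 with equal totals), 0 rose and 22 fell in IRX3_S361A vs IRX3_WT (median -0.39; 2 and 19 with equal totals), and 2 rose and 18 fell in IRX3_S389A vs IRX3_WT (median -0.36); these comparisons share the IRX3_WT libraries. Lif, a cytokine mRNA, fell to 191.2 ± 28.0 in IRX3_S361A and 209 ± 14.1 in IRX3_S389A, against 576.2 ± 42.7 in IRX3_WT (log2 differences -1.59 and -1.46, limma adjusted p = 7.17e-14 and 1.71e-12). Between the mutants, where the Irx3 level also differed, as given above, 10 of the 29 were higher and 2 lower in IRX3_S389A (8 and 3 with equal totals). Of all genes, 7.00% were higher and 3.16% lower there. Among the higher ones of the 29 was Tnf, the best known target of TTP (38877 ± 1371 in IRX3_S389A and 32555 ± 777 in IRX3_S361A, limma adjusted p = 4.33e-06). The list was drawn up with earlier results of these data known, so its direction is no independent evidence, and levels of mRNA do not measure decay rates.

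**Figure D5:**
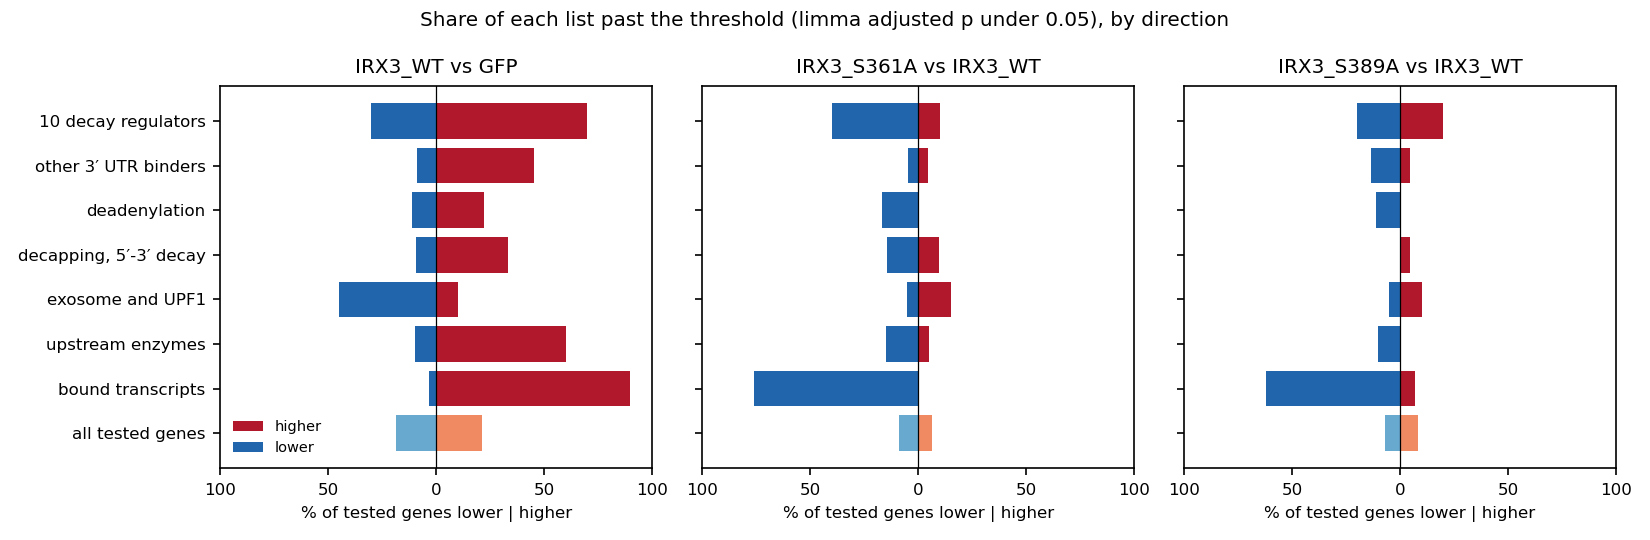
Share of the tested genes of each list called lower (left) and higher (right) by limma, in percent (horizontal axis), in 3 comparisons, with all 13369 tested genes in pale colours. In IRX3_WT vs GFP, all 10 regulators and 27 of 29 bound transcripts were called, against 21.0% higher and 18.6% lower over all genes.

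The 10 macrophage markers summed to 434182 to 446950 normalized counts in IRX3_S361A, 409716 to 423081 in IRX3_S389A, 404652 to 410870 in IRX3_WT and 374296 to 385530 in GFP libraries, and in IRX3_WT vs GFP 4 of the 10 rose and 2 fell (3 and 5 with equal totals). The 8 neutrophil markers summed to 27.33 to 48.7 in IRX3_S361A, 30.49 to 50.33 in IRX3_S389A, 43.24 to 63.34 in IRX3_WT and 25.82 to 40.83 in GFP libraries, with Ly6g, Mpo and Elane at 0 in all of them. Among them S100a8 averaged 29.18 ± 4.81 in IRX3_WT and 12.8 ± 1.18 in GFP (log2 difference 1.12, limma adjusted p = 0.00356). Camp (21.28 and 12.81) and Ngp (0.67 and 0.31) also averaged higher in IRX3_WT than in GFP. S100a9 (0.38 and 2.76) and Ltf (0.76 and 3.05) averaged lower. Ngp, S100a9 and Ltf lay near or below 3 reads on average. The 7 dendritic cell markers summed to 137.2 to 159.8 in IRX3_S361A, 147 to 186 in IRX3_S389A, 161.5 to 169.5 in IRX3_WT and 116.9 to 151 in GFP libraries. Of these Ccr7 averaged 17.2 ± 7.70 in IRX3_WT and 6.65 ± 4.22 in GFP (log2 difference 1.35, limma adjusted p = 0.0288), with an adjusted p of 0.124 and 0.119 without IRX3_WT replicates 1 and 3 and 0.255 without GFP replicate 1. The neutrophil and dendritic cell sums were both higher in every IRX3_WT library than in every GFP library, where 48.4% of all tested genes did not overlap. Xcr1 (139 in IRX3_WT and 119.6 in GFP) made up most of the dendritic cell sum, and S100a8 and Camp most of the neutrophil sum. Zbtb46 and Cd209a also averaged higher in IRX3_WT than in GFP, and Flt3, Clec9a and Siglech lower. All of these 5 but Zbtb46 averaged below 3 reads. Among 6 stromal markers Pdgfrb stood at 123.5 ± 16.1 in IRX3_S361A, 167.3 ± 15.4 in IRX3_S389A, 224.5 ± 5.65 in IRX3_WT and 84.58 ± 13.2 in GFP (log2 difference 1.41 in IRX3_WT vs GFP, limma adjusted p = 4.15e-11). The other 5 together gave 22.11 to 68.58 in IRX3_S361A, 36.23 to 47.52 in IRX3_S389A, 18.69 to 25.03 in IRX3_WT and 16.58 to 24.93 in GFP libraries. Their sum thus overlapped between IRX3_WT and GFP, unlike Pdgfrb. The part of these markers in the results on the regulators was not tested.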

How the data were processed

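Total RNA of 12 BMDM libraries was sequenced. Per the submitters' processing notes, Trimmomatic (no version given), HISAT2 2.1.0, StringTie 1.3.5 and mm10 were used; which program counted, whether by strand, with which gene models, and what gave the size factors is not given in the sources used here. The deposited signal is gene counts divided by the authors by 1 size factor per library, although the table is called raw counts: 100% of values were whole multiples of 1 step per library to a tolerance of 1e-06. Whole reads were recovered with certainty in 9 libraries, and recovered reads ran from 17149058 to 20108002. Gene IDs matched GENCODE M21 for 99.5% of rows without version.

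A gene was tested where 3 or more libraries reached 10 normalized counts, with limma 3.58.1 (R 4.3.3; trend and robust settings) on log2(value + 1), which understates changes of low genes. The 4 group means were fitted jointly over the 12 libraries (8 residual degrees of freedom). Fits were tested on simulated data. Alternatives were a pseudocount of 5, no filter, equal totals, edgeR 4.0.16 and DESeq2 1.42.0 on recovered reads, only the 2 groups compared, a replicate block, leaving out each library, and edgeR on 9 libraries, added after seeing the data. Libraries of a group differed by more than counting noise (chi-square per gene 2.73 to 5.11), and the fits took each as 1 unit. That spread cannot tell whether they came from separate animals or cultures. edgeR with TMM called 5304 genes in IRX3_WT vs GFP on the recovered reads of 13461 genes.

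The members and lists were chosen with earlier results of these data known. The genes named are the 10 regulators, Irx3, up to 4 called genes per list and comparison in order of p, the 4 genes nearest in pattern to each of the 3 regulators with the smallest p over the 4 groups, and markers; a few genes under this rule are not reported here. Intervals from reads cover counting error only, and none is printed.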

Additional observations from a re-analysis of the deposited data

How the results depend on the processing

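Of the 1200 values that the 10 regulators took under the alternatives, 1128 kept their direction and side of the threshold, 31 lost and 18 gained significance, and 23 changed sign, all of them not past the threshold before or after. Equal library totals gave sign changes to 0.0411 (Zfp36, IRX3_S361A vs IRX3_WT), -0.0887 and -0.0315 (Rc3h1 and Elavl1, IRX3_S361A vs GFP), -0.0723 and -0.0856 (Rc3h1 and Elavl1, IRX3_S389A vs GFP) and -0.0541 (Elavl1, IRX3_S389A vs IRX3_S361A). In edgeR with TMM Elavl1 gave -0.0025 between the mutants, and edgeR on 9 libraries gave 0.0453 (Zfp36, IRX3_S361A vs IRX3_WT), 0.0127 (Zc3h12c, IRX3_S389A vs IRX3_WT) and -0.0386 (Rc3h1, IRX3_S361A vs GFP). Values that changed sign when 1 library was left out ranged, in IRX3_S361A vs IRX3_WT, from -0.0569 to 0.0246 (Zfp36) and from -0.0255 to 0.1073 (Arid5a). In IRX3_S389A vs IRX3_WT they ranged from -0.1104 to 0.0115 (Zfp36l1), -0.0448 to 0.0495 (Khsrp), -0.0738 to 0.0168 (Zc3h12c) and -0.0292 to 0.0194 (Rc3h2). Elavl1 ranged from -0.0147 to 0.0202 in IRX3_S389A vs IRX3_S361A. The cause was not tested.

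Leaving out 1 library left 2 to 5 regulators called in IRX3_S361A vs IRX3_WT, with 1483 to 2172 of all genes. It left 2 to 5 in IRX3_S389A vs IRX3_WT (1448 to 2173 of all genes) and 1 to 2 in IRX3_S389A vs IRX3_S361A (904 to 1415 of all genes). Over all genes, limma with 12 libraries called 1359 between the mutants, edgeR with TMM 1371, and the other settings at most 1650. Between the mutants 2 regulators were called with no low-value filter, in DESeq2, with only the 2 groups and with the replicate block, 3 with equal totals and 0 in edgeR on 9 libraries, where limma with 12 libraries called 1 and edgeR with TMM 1. That fit, which has 1 IRX3_S361A library whose spread is taken from the other groups, called 2 regulators and 1377 genes in IRX3_S361A vs IRX3_WT, 2253 genes in IRX3_S361A vs GFP and 433 between the mutants. It also has fewer libraries, and the cause of these differences was not tested. Same-numbered libraries did not visibly deviate together (correlations -0.041 to 0.0297, 18 pairs), and 3 of 12 libraries correlated best with their own number. The labels do not say what the numbers mean, and these correlations cannot tell whether equal numbers share an animal or culture. The replicate block called 10 regulators and 5241 of all genes in IRX3_WT vs GFP. It called 5 regulators and 2023 genes in IRX3_S361A vs IRX3_WT, and 4 and 1982 in IRX3_S389A vs IRX3_WT. Against GFP it called 6 and 3387 in IRX3_S361A, and 8 and 4637 in IRX3_S389A. Between the mutants it called 2 and 1322, the added regulator being Arid5a (limma adjusted p = 0.0212). The lowest value of a regulator was 308.4 normalized counts, against a floor of 3 reads, or at most 3.41.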
